A study of Homo sapiens with 8 samples.

Results

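The genes described here are named for the eukaryotic translation initiation factors. Those proteins bring the first methionyl-tRNA, the mRNA and the ribosomal subunits together, though some genes with such a name have other roles, given below. The genes were chosen by symbol as the protein-coding genes whose name is EIF followed by a digit, without the EIF2AK kinases and the EIF4EBP cap-binding inhibitors. The rule found 48 genes among the 32066 genes of the count table and used no measured value. It left out 7 EIF2AK and EIF4EBP genes and 59 other rows with an EIF name, of which 54 are pseudogenes.

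The RNA came from DU145 cells, a long-established line of epithelial prostate carcinoma cells grown from a brain metastasis. The comparison was between 4 libraries labelled control and 4 libraries from cells with exogenous expression of SOX11, a transcription factor of the HMG-box family. Both groups are the same cell line in the same serum medium. The construct behind the control genotype, the vector and promoter that drive SOX11 and whether the cells are a pool or a clone are not stated in the labels, nor are separate cultures. The p-values therefore measure only the spread between these libraries, which may be technical.

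Total counts ran from 14641250 to 18706095 per library, and SOX11 itself had 0 counts in each control and 303 to 317 counts in each SOX11 library. The epithelial markers KRT8, KRT18, KRT19, EPCAM and CDH1 were present in both groups, and their summed level was 1497 to 1761 CPM (counts scaled to a common library total) in controls against 1200 to 1206 in SOX11 libraries, with 3 of the 5, the keratins, called lower. The 2 blood markers and 4 endothelial markers measured each summed to at most 0.639 CPM in any library, while DCN, LUM, CD3E and HBB were not analysed here. The 4 fibroblast markers measured summed to 3.33 to 5.43 CPM in controls and 5.84 to 7.71 in SOX11 libraries. That difference came mainly from COL1A1, at 3.61 and 6.02 CPM.

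SOX11 replicate 1 stood apart from the other libraries. It held 95 counts of KLK3 and 161 of KLK2, which encode prostate kallikreins, and 24 of TMPRSS2, while the other 7 libraries held 0 to 4 counts of each. Leaving out SOX11 itself, 33 genes had at least 15 counts in this library and more than 10 times the count of every other library, with 1567 counts in all, and no other library had such a gene. They included FOLH1 with 107 counts against at most 3 elsewhere, HOXB13 with 84 against at most 2, and EHF with 232 against at most 5. Results are therefore also given without this library, and its part in them beyond those values was not tested.

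Initiation starts when the eIF2 complex carries initiator tRNA to the small ribosomal subunit, where eIF1, eIF1A, eIF3 and eIF5 assemble with it. The eIF4 proteins bind the mRNA cap, unwind the leader and recruit this assembly, which scans to a start codon. After start codon recognition eIF5 promotes GTP hydrolysis by eIF2, eIF2B recharges eIF2 with GTP, eIF5B joins the large subunit, and eIF6 keeps free large subunits from joining early.

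All 48 genes passed the filter on low counts. Of them, 13 were called lower in SOX11 libraries and 1, EIF4G3, was called higher, by edgeR's quasi-likelihood test at an adjusted p below 0.05 over all 15665 genes tested. Over all tested genes, 20% were called, 10.3% higher and 9.67% lower. Among the initiation factor genes 27.1% were lower and 2.08% higher. The background share depends on abundance, since among the 9697 tested genes that averaged 10 CPM or more, 13.9% were lower and 11.1% were higher. The median log2 fold change, SOX11 minus control, was -0.07 over the 48 genes and 0.00 over all tested genes, and 42 of the 48 values were below 0 against 49.7% of all genes. Among the tested genes that averaged 10 CPM or more, the median was -0.01 and 54.6% of values were below 0.

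The differences were small. Among the 13 lower genes the log2 fold change ran from -0.19 to -0.10, a fold of 1.07 to 1.14, while the median size over all called genes was 0.23. Over called genes that averaged 10 CPM or more, that median was 0.19. For 16 of the 48 genes (33.3%) the 4 control and 4 SOX11 values did not overlap, against 21.1% of all tested genes. Among tested genes that averaged 10 CPM or more, the share without overlap was 25.8%. Without SOX11 replicate 1, 11 genes were lower and EIF4G3 was higher, and 12 of the 14 calls held. EIF3D and EIF4E were lost, with adjusted p-values of 0.0674 and 0.120. In that fit 8.16% of all tested genes were lower. SOX11 replicate 1 was the lowest of its group for 21 of 47 genes, and control replicate 1 was the lowest of its group for 21 as well. SOX11 replicate 4 was the highest of its group for 27 genes and control replicate 4 for 23. The genes thus varied together between libraries, so counts over the 48 genes are not counts of separate observations.

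**Figure D1:**
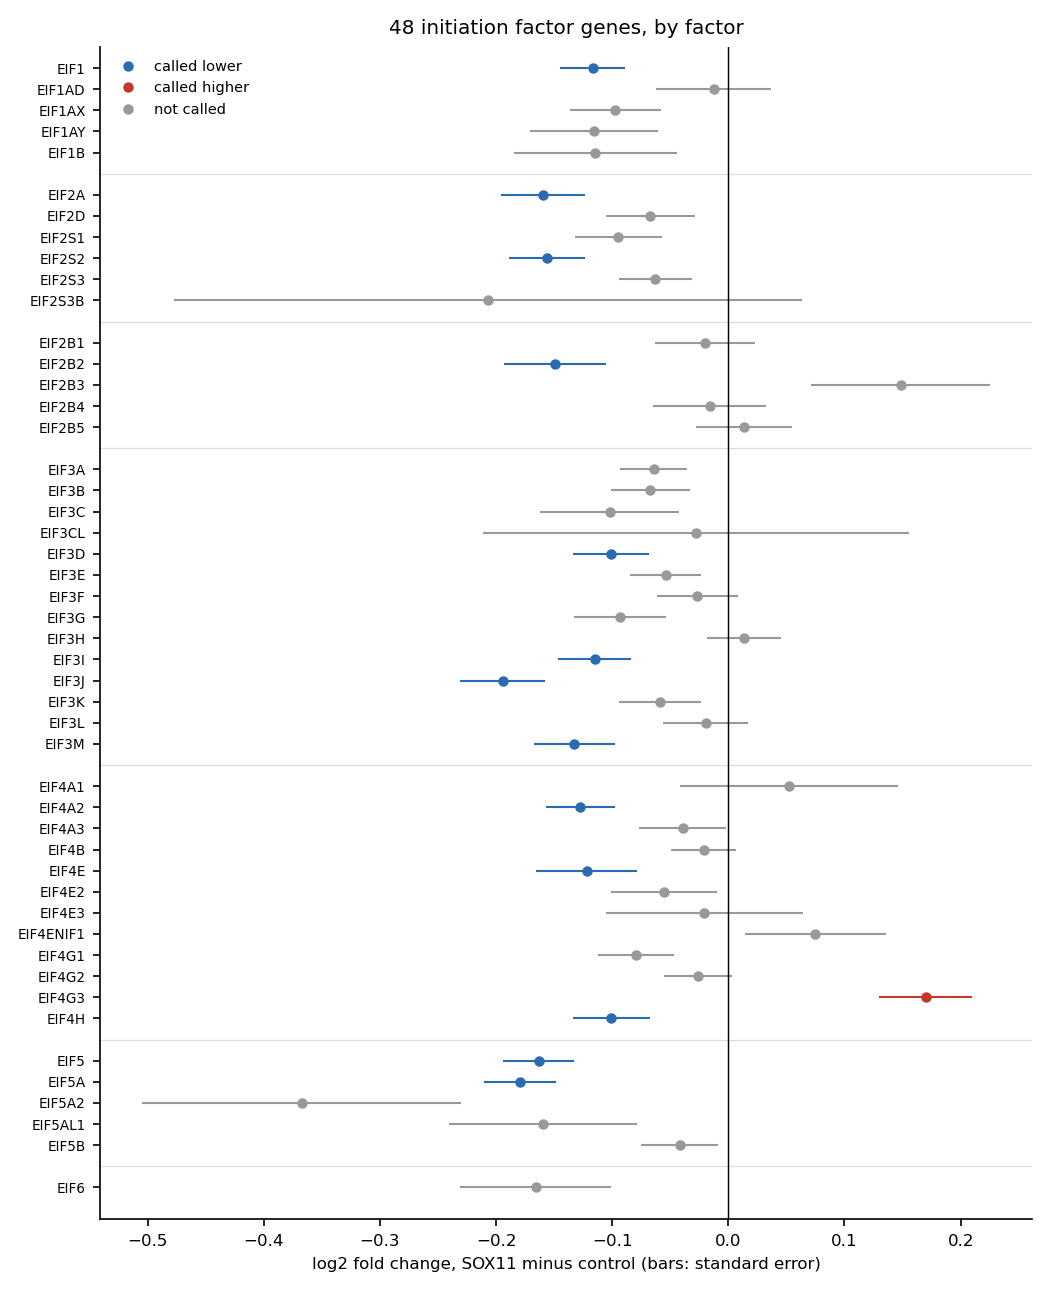
Log2 fold change, SOX11 minus control, of each of the 48 initiation factor genes (points) with its standard error (bars), grouped by factor; blue marks genes called lower, red genes called higher and grey genes not called. Points left of 0 are lower in SOX11 libraries: 42 of the 48 lie there, and EIF4G3 is the 1 red point.

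The summed level of the genes weights each gene by its counts, so EIF4G2, EIF5A and EIF4G1 weigh most in it. It includes EIF4A1, EIF3C and EIF3CL, whose levels are uncertain as described below, so it is not a measure of the whole apparatus. For 47 genes, without the Y-linked EIF1AY, the sum was 11001, 11364, 11163 and 11428 CPM in the control libraries and 10435, 10418, 10659 and 10838 CPM in the SOX11 libraries. The groups did not overlap, and the SOX11 mean was 94.2% of the control mean. By factor the SOX11 sum was 89.2% of control for EIF6, 89.3% for EIF5, 92.8% for both EIF1 and EIF2, 95.1% for EIF3, 96.4% for EIF4 and 98.0% for EIF2B. A factor here is a group of gene names. EIF5A made up most of the EIF5 sum, at 1225 of 1947 CPM in controls. The sums of EIF1, EIF2, EIF3 and EIF5 did not overlap between groups, and those of EIF2B, EIF4 and EIF6 did. CPM is a share of a library, so the total RNA per cell was not measured. In bulk RNA, fewer cells that express a gene and less of its RNA per cell cannot be told apart.

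**Figure D2:**
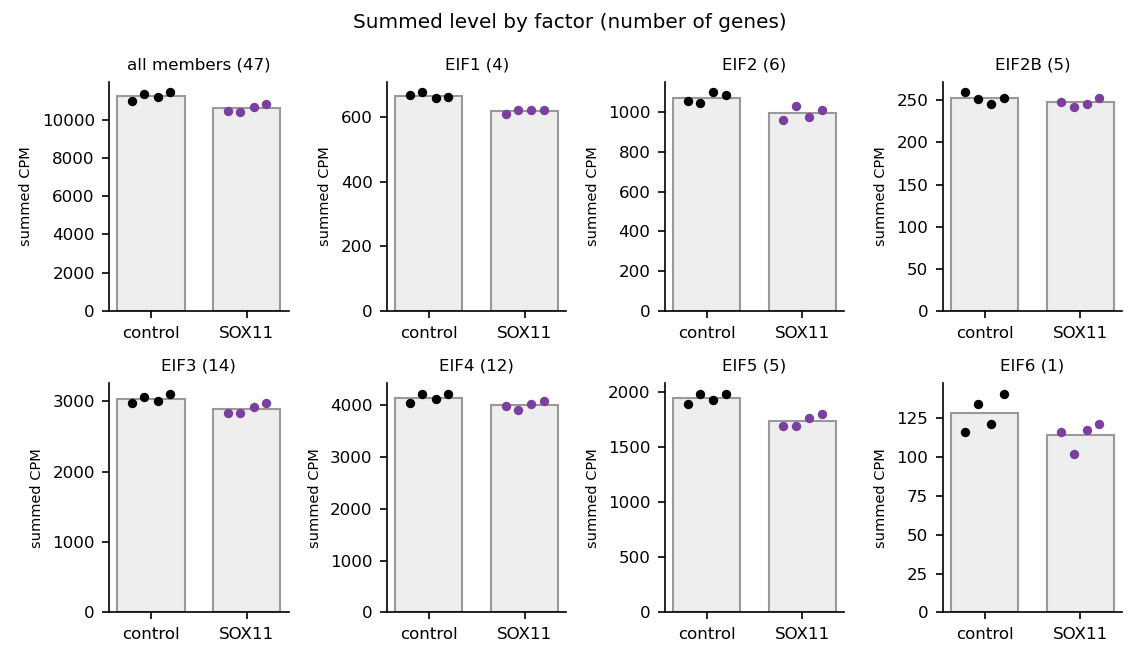
Summed CPM of the initiation factor genes in each library (points) and its mean over 4 libraries (bars, from 0), for 47 genes together and for each factor, with the number of genes in brackets. The SOX11 points lie below all control points for the 47 genes together and for EIF1, EIF2, EIF3 and EIF5.

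Levels between genes were ranked per length, as CPM per kilobase of merged exon. Ratios of paralogues, given below, are of CPM without a length term and serve to compare the groups. In control libraries EIF5A was the highest at 585 ± 20.6 (SD, n = 4), followed by EIF4G2 at 302 ± 4.71, EIF3E at 239 ± 3.63, EIF1 at 223 ± 3.08 and EIF4A2 at 215 ± 3.62. The lowest were EIF2S3B at 0.431 ± 0.0856, EIF3CL at 0.909 ± 0.226, EIF5A2 at 0.990 ± 0.192 and EIF4E3 at 1.38 ± 0.0549. EIF3CL and EIF5A2 could not be ordered beyond their spread. Merged exon length counts every annotated exon, so a gene with a long untranslated end appears lower on this scale.

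**Figure D3:**
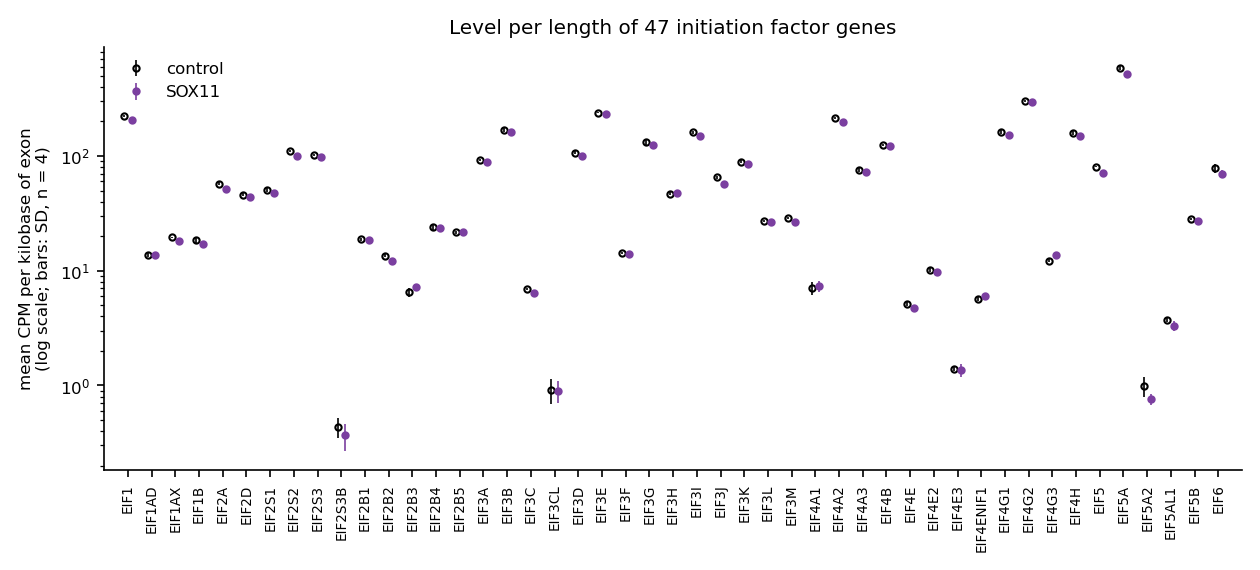
Mean CPM per kilobase of exon of 47 initiation factor genes, on a log axis, in control (open) and SOX11 (filled) libraries, with bars for the SD over 4 libraries. The levels span from 0.431 for EIF2S3B to 585 for EIF5A in controls, and the 2 groups lie close together for every gene.

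EIF1 and eIF1A sit on the small subunit and set how strictly a start codon is chosen. EIF1 was called lower, 1 of the 5 genes with an EIF1 name, and all 5 values were below 0. Of all tested genes, also 20% were called in either direction. EIF1 was at 524, 529.8, 516 and 515 CPM in controls and at 476, 486, 483 and 478 CPM in SOX11 libraries. The groups were well separated, with a log2 fold change of -0.12 (SE 0.028) and an adjusted p of 0.00302. Its paralogue EIF1B had 19.7, 17.7, 17.9 and 19.8 CPM in controls and 17.8, 16.0, 16.9 and 18.5 in SOX11 libraries. Those values overlapped, and although the log2 fold change was -0.11, its SE was 0.070 and the adjusted p 0.276. EIF1B stood at 36.0 ± 2.32 per 1000 of EIF1 in controls and 36.0 ± 2.52 in SOX11 libraries. EIF1AX, the X-linked gene of eIF1A, was at 85.5 to 86.9 CPM in controls and at 76.5 to 84.5 in SOX11 libraries without overlap, but was not called (log2 fold change -0.10, adjusted p 0.0791). EIF1AD, which carries an eIF1A-like domain, had a log2 fold change of -0.01, and EIF1AY one of -0.12, with neither called.

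The trimeric eIF2 consists of alpha (EIF2S1), beta (EIF2S2) and gamma (EIF2S3) subunits. Of the 6 genes with an EIF2 name outside EIF2B, EIF2S2 and EIF2A were called lower and all 6 values were below 0. EIF2S2, the highest of them per length at 110.4 ± 2.34 CPM per kilobase in controls, was at 295, 289, 301 and 288 CPM in controls and at 257, 278, 253 and 264 CPM in SOX11 libraries. The groups did not overlap (log2 fold change -0.16, SE 0.033, adjusted p 0.000747). EIF2S2 shares 18.5% of its 75-base words with other genes, and 17.4% with the pseudogene EIF2S2P4, so part of its reads could be counted elsewhere. EIF2S1 was at 251 to 281 CPM against 236 to 262, and EIF2S3 at 286 to 299 against 274 to 294. Both overlapped, with log2 fold changes of -0.09 and -0.06 and adjusted p-values of 0.0759 and 0.170.

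EIF2A, a single-chain protein unrelated to the alpha subunit of eIF2, was at 121, 129, 129 and 129 CPM in controls and at 109, 117, 113 and 115 CPM in SOX11 libraries. Every SOX11 value was below every control value (log2 fold change -0.16, SE 0.036, adjusted p 0.00169). EIF2D, a ribosome-binding factor that can deliver tRNA without eIF2, was at 89.0 to 93.8 CPM against 85.3 to 91.5 and was not called (log2 fold change -0.07, adjusted p 0.239). EIF2S3B, a retrogene copy of EIF2S3, was near 1 CPM in both groups.

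Of the 5 subunits of eIF2B, the nucleotide exchange factor of eIF2, EIF2B2 was called lower and the other 4 were not called. That is 20% called, the same share as over all tested genes in either direction. EIF2B2, the beta subunit, was at 60.2, 59.7, 56.0 and 57.5 CPM in controls and at 51.7, 52.6, 52.3 and 54.1 CPM in SOX11 libraries. The values did not overlap (log2 fold change -0.15, SE 0.044, adjusted p 0.0144), and without control replicate 2 the adjusted p was 0.0537. Exons on the opposite strand cover 29.3% of its exonic bases, and no source used here gives the strand setting of the counting. EIF2B4, the delta subunit and the highest of the complex per length at 23.9 ± 1.55 CPM per kilobase in controls, was at 56.2, 48.7, 49.5 and 51.6 CPM in controls and at 50.1, 52.6, 49.6 and 51.3 CPM in SOX11 libraries. The groups overlapped throughout. EIF2B3, the gamma subunit, had a positive log2 fold change of 0.15 (SE 0.077) and was not called at an adjusted p of 0.186. EIF2B1 and the catalytic EIF2B5 had log2 fold changes of -0.02 and 0.01.

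The large scaffold eIF3 links the small subunit to the mRNA-bound factors. Of its 14 genes, EIF3J, EIF3M, EIF3I and EIF3D were called lower and none higher, and 13 of the 14 values were below 0. EIF3J, the loosely bound subunit that sits near the mRNA entry of the small subunit, was at 170.3, 170.2, 160.0 and 169 CPM in controls and at 137, 148, 146 and 155 CPM in SOX11 libraries. The groups did not overlap, and the log2 fold change of -0.19 (SE 0.037, adjusted p 0.000216) was the lowest among the called genes. EIF3M was at 148, 145, 142 and 148 CPM in controls and at 129, 129, 135 and 139 CPM in SOX11 libraries. Its groups did not overlap either (log2 fold change -0.13, adjusted p 0.00632).

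EIF3I, a WD-repeat subunit, was at 228, 235, 232 and 241 CPM in controls and at 217, 213, 212 and 222 CPM in SOX11 libraries. Its groups were separate (log2 fold change -0.12, adjusted p 0.00859), and with offsets for GC content and length, added after the data were seen, its adjusted p was 0.0503. EIF3D, a subunit that can itself bind a cap, was at 233, 249.8, 241 and 245 CPM in controls and at 222, 218, 233 and 231 CPM in SOX11 libraries. Its highest SOX11 value lay just under its lowest control value (log2 fold change -0.10, adjusted p 0.0270). That call was lost when any 1 of control replicates 2, 3 and 4 or SOX11 replicates 1 and 2 was left out, with adjusted p-values up to 0.113.

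The core subunits with the highest counts were not called. EIF3A was at 608 to 625 CPM in controls and 574 to 602 in SOX11 libraries without overlap (log2 fold change -0.06, adjusted p 0.119). EIF3B was at 486 to 543 against 470.4 to 513 CPM. EIF3E, the highest of the complex per length, was at 371, 364, 365 and 376 CPM in controls and at 339, 362, 355 and 364 CPM in SOX11 libraries. The groups just overlapped (log2 fold change -0.05, adjusted p 0.232). EIF3H was the only subunit with a positive value, a log2 fold change of 0.01, and without control replicate 2 it was -0.00496. EIF3F, EIF3G, EIF3K and EIF3L had log2 fold changes of -0.09 to -0.02 and were not called. Same-strand exons of another gene cover 41.6% of the exonic bases of EIF3L, so its level is uncertain. EIF3C and EIF3CL are near-identical, since 97.9% of the 75-base words of EIF3CL also occur in EIF3C, and their levels of 24.5 and 2.81 CPM in controls are uncertain.

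The eIF4 group held both directions. Of its 12 genes, EIF4A2, EIF4H and EIF4E were called lower, EIF4G3 was called higher, and 9 of the 12 values were below 0. EIF4G3 encodes 1 of the scaffold proteins that join the cap-binding protein to the helicase and to eIF3. It was at 84.4, 85.5, 88.7 and 81.9 CPM in controls and at 95.7, 101, 91.6 and 94.4 CPM in SOX11 libraries. Every SOX11 value was above every control value (log2 fold change 0.17, SE 0.040, adjusted p 0.00239). The call held in all 17 alternative fits, with log2 fold changes of 0.14 to 0.19. The gene lies at chr1:20806292-21176888 on the minus strand (GRCh38).

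The other scaffold genes are far more abundant. EIF4G1 was at 1008, 1080, 1019 and 1074 CPM in controls and at 1017, 926, 1022 and 992 CPM in SOX11 libraries. These values overlapped (log2 fold change -0.08, SE 0.033, adjusted p 0.0881). EIF4G2, which lacks the binding site for the cap-binding protein, was at 1332, 1377, 1344 and 1370 CPM in controls and at 1284, 1307, 1341 and 1394 CPM in SOX11 libraries. Its SOX11 values spread around the controls (log2 fold change -0.03, adjusted p 0.604). EIF4G3 was 81.6 ± 4.84 per 1000 of EIF4G1 in controls and 97.1 ± 8.58 in SOX11 libraries, and 62.8 ± 2.61 and 72.0 ± 4.80 per 1000 of EIF4G2. Both ratios were higher in every SOX11 library than in any control library.

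**Figure D4:**
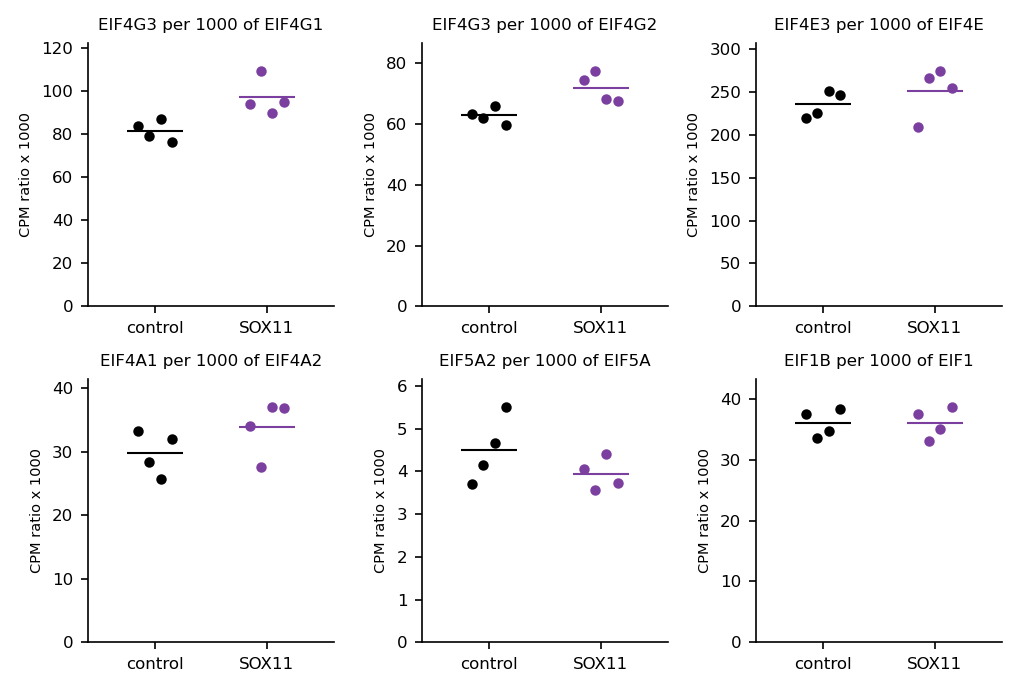
CPM of 1 paralogue per 1000 CPM of another in each library (points) with the group mean (line), for 6 pairs, each axis starting at 0. The ratios are not corrected for length, and the level of EIF4A1 is uncertain. The SOX11 points lie above all control points for EIF4G3 against EIF4G1 and against EIF4G2, and the groups overlap for the other 4 pairs.

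EIF4E, which binds the mRNA cap, was at 63.0, 65.2, 59.2 and 62.0 CPM in controls and at 55.4, 57.8, 57.4 and 58.9 CPM in SOX11 libraries. The values did not overlap by a narrow margin (log2 fold change -0.12, SE 0.044, adjusted p 0.0464). This was the weakest of the calls, and it was lost in 6 of the 8 fits that left out a library and in 4 of the 9 other alternatives, with adjusted p-values up to 0.176. EIF4E2, a cap-binding protein that represses translation, was at 50.2, 53.4, 55.2 and 52.5 CPM in controls and at 51.1, 49.7, 52.1 and 50.4 CPM in SOX11 libraries. EIF4E3 was at 13.9, 14.7, 14.8 and 15.2 CPM in controls and at 11.6, 15.4, 15.8 and 14.98 CPM in SOX11 libraries. Both paralogues overlapped between groups, with log2 fold changes of -0.06 and -0.02 (adjusted p-values 0.443 and 0.903). Without SOX11 replicate 1, the lowest library for EIF4E3, the value for EIF4E3 was 0.07. EIF4ENIF1, which carries the cap-binding protein into the nucleus, had a log2 fold change of 0.07 and was not called.

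Of the helicase genes, EIF4A2 alone was called. EIF4A2 was at 422, 417, 409.7 and 407 CPM in controls and at 382, 388, 380.4 and 366 CPM in SOX11 libraries. The groups were separate (log2 fold change -0.13, SE 0.030, adjusted p 0.00223). EIF4A1 was at 14.1, 11.8, 10.5 and 13.0 CPM in controls and at 13.0, 10.7, 14.1 and 13.5 CPM in SOX11 libraries, with overlap (log2 fold change 0.05, SE 0.094, adjusted p 0.763). The level of EIF4A1 is uncertain. In the GENCODE 29 annotation 100% of its exonic bases also belong to same-strand exons of other genes, the SENP3-EIF4A1 readthrough gene among them, and no source used here says how the authors' counting treated such reads. The readthrough gene held 8 to 27 counts per library and the 10 EIF4A1 pseudogenes together 123 to 233. EIF4A3, the helicase of the exon junction complex, had a log2 fold change of -0.04 and was not called.

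Of the helicase partners, EIF4H was called lower and EIF4B was not called. EIF4H was at 399 to 439 CPM in controls and at 385 to 410.0 CPM in SOX11 libraries. It was the only called gene whose groups overlapped, because control replicate 1 lay among the SOX11 values (log2 fold change -0.10, SE 0.033, adjusted p 0.0285). Leaving out control replicates 2, 3 or 4 or SOX11 replicates 2 or 3 ended that call, with adjusted p-values up to 0.101. EIF4B was at 507 to 525 CPM in controls and at 506 to 514 in SOX11 libraries, with a log2 fold change of -0.02 and an adjusted p of 0.664. It shares 21.0% of its 75-base words with other genes, and 15.3% with the pseudogene EIF4BP6.

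**Figure D5:**
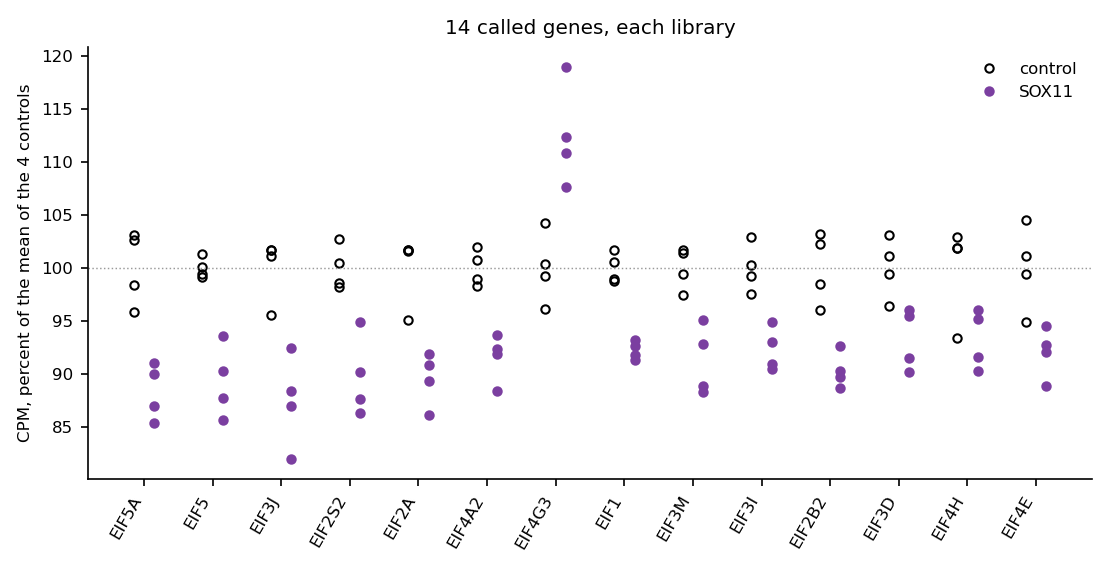
CPM of each of the 14 called genes in each library, as a percent of the mean of its 4 control libraries (open circles, control; filled circles, SOX11), ordered by adjusted p from EIF5A on the left. The groups are separate for 13 genes and overlap for EIF4H, and EIF4G3 is the 1 gene whose SOX11 values lie above its controls.

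Of the 5 genes named EIF5, EIF5A and EIF5 were called lower, with the lowest adjusted p-values of the 48 genes, and all 5 values were below 0. EIF5A, at chr17:7306999-7312463 on the plus strand, encodes a protein that helps the ribosome form difficult peptide bonds and carries hypusine, a modified lysine. It was at 1173, 1263, 1205 and 1257 CPM in controls and at 1065, 1045, 1102 and 1114 CPM in SOX11 libraries. The groups did not overlap, with a log2 fold change of -0.18 (SE 0.031), and an adjusted p of 6.19e-05, and the level fell by 11.7%. EIF5, which activates GTP hydrolysis by eIF2, was at 536, 537, 540.4 and 547 CPM in controls and at 462, 474, 488 and 506 CPM in SOX11 libraries. It fell by 10.7% without overlap (log2 fold change -0.16, SE 0.030, adjusted p 0.000184).

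EIF5A has a near copy, EIF5AL1, and a paralogue, EIF5A2, so how far reads can be told apart matters for its value. The following coding stretches, read from GENCODE 29 transcripts, are bases 88 to 210 counted from the A of the start codon. They surround codon 50, for the lysine that becomes hypusine. Capitals mark bases that differ from EIF5A.
EIF5A: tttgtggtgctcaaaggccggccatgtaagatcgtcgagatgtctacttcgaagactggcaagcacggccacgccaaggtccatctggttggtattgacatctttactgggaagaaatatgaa
EIF5AL1: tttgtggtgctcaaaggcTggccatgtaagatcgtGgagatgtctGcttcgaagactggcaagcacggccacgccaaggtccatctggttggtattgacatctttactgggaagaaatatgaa
EIF5A2: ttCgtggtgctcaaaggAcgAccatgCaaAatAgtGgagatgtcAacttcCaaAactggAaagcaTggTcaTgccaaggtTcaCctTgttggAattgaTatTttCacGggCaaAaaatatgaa
EIF5AL1 differs from EIF5A at 3 of these 123 bases and at 5 of 465 coding bases, while EIF5A2 differs at 24 of the 123. Reads of EIF5A and EIF5AL1 can therefore share long stretches, and 18.0% of the 75-base words of EIF5A occur in EIF5AL1. In a global alignment the coding sequence of EIF5A2 was 71.6% identical to that of EIF5A.

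EIF5AL1 was at 14.6, 14.3, 13.4 and 14.6 CPM in controls and at 11.3, 12.1, 13.7 and 13.9 CPM in SOX11 libraries. It overlapped between groups and was not called (log2 fold change -0.16, adjusted p 0.177). At 11.6 ± 0.567 per 1000 of EIF5A in controls and 11.8 ± 0.885 in SOX11 libraries, its counts were small beside those of EIF5A. EIF5A2 was at 4.34, 5.25, 5.63 and 6.93 CPM in controls and at 4.32, 3.73, 4.87 and 4.17 CPM in SOX11 libraries. Its log2 fold change of -0.37 was the largest in size of the 48 genes, but the groups overlapped, the SE was 0.137 and the adjusted p was 0.0573. EIF5B, the factor that joins the large subunit, was at 159 to 166 CPM in controls and 154 to 162 in SOX11 libraries (log2 fold change -0.04, adjusted p 0.424).

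EIF6, the only gene of its factor, was at 116, 135, 121 and 141 CPM in controls and at 117, 102, 117 and 121 CPM in SOX11 libraries. The groups overlapped. Its log2 fold change of -0.17 was as large as those of called genes, but its SE was 0.065, and edgeR gave an unadjusted p of 0.0262 and an adjusted p of 0.101. It was called in 4 of the 17 alternatives, by DESeq2 with an adjusted p of 0.0335 and without control replicate 1 with 0.0135 among them. Same-strand exons of another gene cover 17.4% of its exonic bases.

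The genes that control initiation were read beside these values and beside the 10.3% of all tested genes called higher and 9.67% called lower. With 1 call among 8 genes or among 10, a list lies at about that share. Of the 8 genes for eIF2 kinases, their regulators and the eIF2alpha phosphatase subunits, EIF2AK4, the amino acid sensing kinase GCN2, was called lower (log2 fold change -0.12, adjusted p 0.0249, from 160.1 ± 4.97 to 148 ± 7.37 CPM) and none was higher. That call was lost without control replicate 2, control replicate 4, SOX11 replicate 1 or SOX11 replicate 3. Of 10 target genes of the integrated stress response, which phosphorylated eIF2 sets off, TRIB3 was called lower (log2 fold change -0.22, adjusted p 0.00111) and none higher. ATF4, its central transcription factor, was at 415 ± 8.08 and 401 ± 2.42 CPM and was not called.

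Among 15 genes for inhibitors of the cap-binding protein, its kinases and the mTORC1 pathway, 14 were tested, 4 were called higher and none lower. Called members were RPS6KB1, EIF4EBP2, MKNK2 and TSC1. RPS6KB1, the S6 kinase, went from 41.2 ± 2.86 to 49.8 ± 1.08 CPM (log2 fold change 0.27, adjusted p 0.000196). EIF4EBP2, which holds the cap-binding protein away from the scaffold, was raised from 136 ± 2.68 to 152 ± 6.85 CPM (log2 fold change 0.16, adjusted p 0.00178). MKNK2, a kinase of the cap-binding protein, had 82.8 ± 7.61 CPM in controls and 110.1 ± 9.75 in SOX11 libraries (log2 fold change 0.41, adjusted p 0.00265). TSC1, which restrains mTORC1, rose from 75.3 ± 4.42 to 82.9 ± 2.46 CPM (log2 fold change 0.14, adjusted p 0.0200). The TSC1 call was lost with GC and length offsets and without control replicates 2 or 4 or SOX11 replicates 1 or 3 (adjusted p up to 0.108), and the other 3 held in all 17 alternatives. These members act in opposite directions on initiation, since EIF4EBP2 and TSC1 restrain it and RPS6KB1 promotes it.

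Of 17 initiation partners without an EIF symbol, CTIF and PAIP2 were called higher and BZW1 and ABCE1 lower. Both counts lie near the shares of all tested genes, 10.3% higher and 9.67% lower. CTIF, a scaffold of the nuclear cap-binding complex, rose from 61.2 ± 3.88 to 79.5 ± 0.802 CPM (log2 fold change 0.38, adjusted p 1.15e-07), and PAIP2, an inhibitor of poly(A)-binding protein, had a log2 fold change of 0.16. BZW1, which resembles eIF5, fell by 0.20 on the log2 scale from 263 ± 7.96 to 229.8 ± 4.73 CPM (adjusted p 3.00e-05). ABCE1, which splits ribosomes after termination, fell by 0.10. The calls of CTIF and BZW1 held in all 17 alternatives, while that of PAIP2 was lost in 8, DESeq2, the replicate block and the fit without SOX11 replicate 1 among them (adjusted p up to 0.171). That of ABCE1 was lost in 5, each of which left out a library, namely control replicates 2, 3 and 4 and SOX11 replicates 1 and 3 (adjusted p up to 0.119). Of 11 elongation and termination factors, 10 were tested, 3 were called lower (EEF1A2, EEF1B2 and GSPT1, with log2 fold changes of -0.25, -0.16 and -0.12) and none higher.

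By edgeR none of the 4 exon junction partners of EIF4A3 was called, and 1 had an unadjusted p below 0.05. The most abundant, CASC3, was at 158 ± 5.40 and 166 ± 1.30 CPM. None of the 2 mitochondrial initiation factor genes was called either, and 1 had an unadjusted p below 0.05, while DESeq2 and limma-voom called 0 in both lists. MTIF2 was at 66.4 ± 1.39 and 61.5 ± 2.02 CPM.

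Promoter windows were read to see which short motifs the genes that moved share. RefSeq start sites on GRCh38.p14, with 250 bases before and 50 after each, gave 57 windows for 41 of the 48 genes. The ETS-type motif CCGGAA, searched on both strands, occurred in 35.1% of these windows and in 17.2% of all 35116 windows in the table. It was in 38.9% of the 18 windows of genes called lower and in 33.3% of the 39 windows of the others. Several of those 18 windows belong to EIF5A and some of these overlap, so windows are not separate genes. Counted by gene, the motif was in 7 of 12 genes called lower and in 11 of the 29 others. Over all windows it was in 5487 of 27305 genes. All windows were not restricted to tested genes and not matched in level or base content to those of the initiation factor genes. No difference between these shares was tested. The E-box CACGTG, which reads the same on both strands, was in 17.5% of the initiation factor windows and 7.26% of all windows. Genes called lower held it less often than the others, in 11.1% against 20.5% of windows. By gene that was 2 of 12 against 8 of 29. The SOX-type motifs ACAAAG and ACAATG on either strand were in 5.26% and 24.5%. They were in 0 of the 18 windows of lower genes and in 3 of the 39 windows of the others. A window counts as holding a motif even where a match overlaps one of another motif, and a match is a description of the sequence only. The windows below are 3 examples taken from genes called lower, chosen after their matches were seen, with CCGGAA (or TTCCGG on the other strand) and CACGTG in capitals, written 5′ to 3′ on the gene's strand.
EIF3I, chr1:32222157-32222456, plus strand: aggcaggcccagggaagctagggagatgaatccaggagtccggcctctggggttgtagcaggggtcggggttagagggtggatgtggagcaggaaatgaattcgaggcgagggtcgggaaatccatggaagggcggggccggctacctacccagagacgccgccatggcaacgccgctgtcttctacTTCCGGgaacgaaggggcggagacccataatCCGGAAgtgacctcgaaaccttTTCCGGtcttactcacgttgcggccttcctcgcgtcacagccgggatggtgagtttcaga
EIF2A, chr3:150546537-150546836, plus strand: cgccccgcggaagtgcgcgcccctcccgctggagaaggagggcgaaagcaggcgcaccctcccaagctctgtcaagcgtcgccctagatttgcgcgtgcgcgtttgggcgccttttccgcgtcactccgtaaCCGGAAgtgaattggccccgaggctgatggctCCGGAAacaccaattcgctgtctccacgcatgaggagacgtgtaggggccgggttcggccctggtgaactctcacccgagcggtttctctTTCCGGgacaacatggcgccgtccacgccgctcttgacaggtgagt
EIF4E, chr4:98929084-98929383, minus strand: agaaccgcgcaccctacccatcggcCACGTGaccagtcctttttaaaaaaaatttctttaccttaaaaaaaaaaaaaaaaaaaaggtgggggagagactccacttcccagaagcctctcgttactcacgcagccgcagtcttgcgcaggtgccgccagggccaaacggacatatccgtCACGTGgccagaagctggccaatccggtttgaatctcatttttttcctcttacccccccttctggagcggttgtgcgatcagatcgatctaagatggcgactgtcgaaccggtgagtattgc
EIF3I and EIF2A each hold 3 ETS-type matches and EIF4E holds 2 E-boxes. Some windows of genes that were not called held as many matches: EIF1AD also holds 3 ETS-type matches, EIF5A2 holds 2 E-boxes and 2 ETS-type matches, and EIF4G1 has a window with 2 E-boxes and 1 ETS-type match. Of the 20 initiation factor windows with an ETS-type match, 7 belong to genes called lower and 13 to the others.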

How the data were processed

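RNA was measured in 8 DU145 libraries, 4 control and 4 with exogenous SOX11, made with a stranded poly(A) kit per the labels' protocols. The data deposited by the authors are raw counts, 1 column for each library and 1 row for each Ensembl gene, with no normalization. Per the submitters' processing notes cutadapt, FastQC, STAR 2.7.0e and the build GRCh38 were used, while for the counter, its strand setting and its annotation the entry is "not given in the sources used here". Library totals ran from 14641250 to 18706095 counts.

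Symbols were matched for 32053 of 32066 genes, and 30159 were found in GENCODE 29, which gave lengths and coordinates. Genes were filtered with filterByExpr (minimum count 10), scaled with TMM and tested with edgeR 4.0.16 (quasi-likelihood, robust, group only) in R 4.3.3. Benjamini-Hochberg adjustment ran over 15665 genes, with calls below 0.05. The count fit was tested on simulated data. CPM values are TMM-scaled. The members and lists were chosen with earlier results of these data known. Values in every library are given for the 12 called genes with the smallest adjusted p, for the gene of each factor highest per length and for paralogues. Of related lists, up to 4 called genes, or the most abundant, are named. Libraries of a group differed beyond counting noise in a chi-square check (1.43 to 3.29 per degree of freedom). Alternatives were other scalings and filters, DESeq2 1.42.0, limma-voom 3.58.1, a replicate block, each library left out, and GC and length offsets (mgcv 1.9.3), the last added after the data were seen. The level of the Y-linked EIF1AY is not given, and some marker genes are not reported here.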

Additional observations from a re-analysis of the deposited data

Results flagged for a closer look

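Among 94 groups of 4 libraries, a library's gap to the others was wide against the group's range in 6, where chance gives about 1 in 20. EIF2A in control replicate 1 was at 120.65 CPM against 128.91 to 129.13 in the other controls. EIF3J in control replicate 3 was at 160.02 CPM against 169.31 to 170.34, and EIF4H in control replicate 1 at 398.55 CPM against 434.93 to 439.26. EIF2D in control replicate 2 was at 89.041 CPM against 93.123 to 93.771. In SOX11 replicate 2, EIF2B5 was at 61.516 CPM against 64.476 to 64.6 and EIF2S3 at 293.92 CPM against 274.01 to 276.24 in the other SOX11 libraries. EIF2S3 was called lower without that library, with an adjusted p of 0.0452 by edgeR.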

How the results depend on the processing

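Across 17 alternatives, 10 to 17 of the initiation factor genes were called lower and 1 higher, and 2407 to 3365 genes in all. Of the 14 calls, 9 held in every alternative: EIF5A, EIF5, EIF3J, EIF2S2, EIF2A, EIF4A2, EIF4G3, EIF1 and EIF3M. No called gene changed sign, while 7 uncalled genes did, and 9 uncalled genes were called in some alternative. Counts over related lists were small and moved. For the eIF2 kinases and phosphatase subunits 2 were called with GC and length offsets, and 0 to 1 when a library was left out. For the initiation partners 2 to 4 were called when a library was left out. For the integrated stress response targets 2 were called without the filter and 2 by DESeq2, and 1 to 2 when a library was left out. The deviations of same-numbered libraries of the 2 groups correlated only weakly (r = 0.06, -0.07, -0.04 and 0.11). The labels do not say whether a shared number marks anything, and so few pairs cannot settle it. With the replicate block 2899 genes were called in all, of which 13 initiation factor genes were lower and 1 higher, with EIF4E lost and EIF6 gained. Depth limits EIF2S3B, EIF3CL and EIF5A2 most, whose log2 fold changes had the largest standard errors, 0.271, 0.183 and 0.137.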
